A study of Epimedium pubescens with 12 samples.

Results

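The 77 genes described here are the photoreceptor, light signalling, clock and flowering-time genes of Epimedium pubescens, a medicinal herb of the barberry family. They were taken from 53813 annotated or assembled genes by the protein names in the authors' annotation, among them phytochrome, cryptochrome, phototropin, GIGANTEA, adagio, the pseudo-response regulators, EARLY FLOWERING, HEADING DATE, SPA1-RELATED and COP1. Of 85 genes with such names, 8 were left out because the annotation places them in transcription factor families (3 bHLH genes named PIL15 and 5 GARP genes named APRR2). The set holds 13 photoreceptors (6 phytochromes, 4 cryptochromes and 3 phototropins), 13 pseudo-response regulators, 1 GIGANTEA gene, 3 adagio genes, 3 ELF4-like genes, 3 further EARLY FLOWERING genes and 7 HEADING DATE 3A genes. It also holds 4 SPA1-RELATED genes, 2 COP1 genes, 6 genes for COP1-interacting or related proteins, 10 phytochrome kinase substrates, 7 phytochrome-interacting ankyrin proteins and 5 others. No gene matched TERMINAL FLOWER or EARLY FLOWERING 3.

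Leaf RNA was sequenced in 12 libraries from seedlings grown in sand under 14 h of light a day at 22 ± 2 °C, 3 each (replicates A to C) for 4 groups. Leaves were taken after 30 d without phosphate (30d -P, 0 mmol/L) or with it (30d +P, 1 mmol/L), and after 90 d in the same solutions (90d -P and 90d +P). The -P and +P solutions also differed in other salts (potassium, sodium, sulfate and nitrate). The replicates are described as biological. How many seedlings gave RNA for each is not given in the sources used here, so p-values measure only the spread between these samples. Sampling date, plant age and duration of treatment cannot be told apart, and the hour of harvest is not given in the sources used here. A difference in clock genes between 30 and 90 d therefore cannot be told apart from a difference in the hour of harvest.

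Plants sense red and far-red light with phytochromes and blue light with cryptochromes, phototropins and the adagio proteins. The clock is a loop of repressors, in which LHY-type factors peak around dawn and pseudo-response regulators follow through the day, and GIGANTEA links the clock to protein stability and flowering. COP1 and its SPA partners form a ubiquitin ligase that removes light-response factors in darkness, and florigen proteins of the FT and HEADING DATE 3A type travel from leaves to the shoot tip to start flowering. These roles come mainly from Arabidopsis and rice, and the gene names used below are those of the closest annotated protein.

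Total counts per library ranged from 14756971 to 18153463. Of the 77 genes, 57 passed the filter on low counts, among 24307 genes in all, and the other 20 had at most 45 counts over the 12 libraries. Values below are CPM, read counts scaled to a common library size, and differences are log2 fold changes with their standard error (SE), from 1 edgeR fit to all 12 libraries. A gene was called where the adjusted p was at most 0.05 and the absolute log2 fold change at least 1. Biological variation between replicates had a coefficient of 0.600 in this fit. The summed CPM of 57 leaf mesophyll marker genes (Rubisco small subunits and chlorophyll a-b binding proteins, 3 of them at 0) lay between 48402 and 80767 in the 30 d libraries and between 23237 and 51817 in the 90 d libraries, with the lowest values, 26384 and 23237, in replicate B of 90d -P and of 90d +P. Nearly all of this sum came from chlorophyll a-b binding genes, as no Rubisco small subunit gene was above 29.2 CPM. The higher of these Rubisco genes, Ebr02G041860, did not fall without phosphorus. It had 17.9, 12.8 and 11.8 CPM in 30d -P and 28.3, 18.1 and 29.2 CPM in 90d -P (replicates A to C), and its +P groups overlapped. In bulk leaves, fewer cells of a type and less RNA per cell cannot be told apart. The 8 root marker genes, of which CASP1 and 1 SCARECROW gene were at 0, summed to 252 CPM in replicate A of 30d -P, mostly from 1 assembled SCARECROW-like gene, and to between 10.9 and 104 CPM elsewhere. The 8 cell division markers (2 at 0) summed to between 57.6 and 119 CPM, nearly all from 1 gene, Cyclin-B1-2 Ebr05G005550 (55.3 to 112 CPM). The 33 senescence markers (26 at 0, all SAG12 genes among them) summed to between 3.33 and 15.9 CPM. No gene was found for the floral and meristem markers. What part these differences have in the results was not tested.

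More of these genes were called between sampling times than between the solutions. Between 30 and 90 d without phosphorus, edgeR called 8 of the 57 genes tested (14.0%, against 5.58% of all genes tested), 4 higher and 4 lower at 90 d (1.63% and 3.95% of all genes). With phosphorus it called 7 (12.3%, against 3.02% of all genes), 4 higher and 3 lower (0.843% and 2.18% of all genes). The genes that rose encode pseudo-response regulators (3 APRR5 genes and 1 PRR73 gene), phytochrome A (2 genes) and SPA1-RELATED 3. Those that fell encode COP1-interacting protein 7 (3 genes), phytochrome kinase substrate 4 and the phytochrome A-associated F-box protein EID1. In all, 12 genes were called in 1 or both comparisons, and 3 (APRR5 Ebr05G066840, CIP7 Ebr01G024200 and PKS4 Ebr05G017980) in both.

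The 2 time comparisons share no library. The log2 fold change had the same sign in both for 47 of the 57 genes (82.5%), and for 74.0% of all genes tested. The median log2 fold change of the 57 was 0.01 without and 0.10 with phosphorus, close to the 0.03 and 0.02 of all genes. The CPM of the 30 d and 90 d groups did not overlap for 22 of the 57 genes without phosphorus (33.3% of all genes) and for 16 with phosphorus (26.0% of all genes). At an unadjusted p under 0.05, 15 genes differed without phosphorus (25.4% of all genes) and 19 with phosphorus (22.1%), of which 11 (16.5% of all genes) and 14 (13.2%) also passed the fold change minimum. At the adjusted p without that minimum they were 9 (6.69% of all genes) and 8 (3.62%). DESeq2 on the 2 groups called 10 without phosphorus (12.6% of all genes) and 11 with it (8.77%), and limma-voom called 9 (9.9% of all genes) and 12 (8.48%). edgeR on the 2 groups alone called 1, CIP7 Ebr01G024200, without phosphorus (1.47% of all genes) and 0 with it (0.00918%).

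The edgeR calls among the 57 genes depended on single libraries. The share of all genes called in the fits below is not given here, so a general loss of calls cannot be told apart from a loss in these genes. Without phosphorus, the 8 calls became 1 without 30d -P replicate A, 0 without 30d -P replicate B, 4 without 30d +P replicate B or C, 3, 1 or 2 without 90d -P replicate A, B or C, and 3 without 90d +P replicate A. With phosphorus, the 7 calls became 0 without 30d -P replicate B, 30d +P replicate B or C, or 90d +P replicate B, and 1 or 3 without 90d +P replicate A or C. With both 90 d replicates B left out, 0 of the 57 were called in either comparison.

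**Figure D1:**
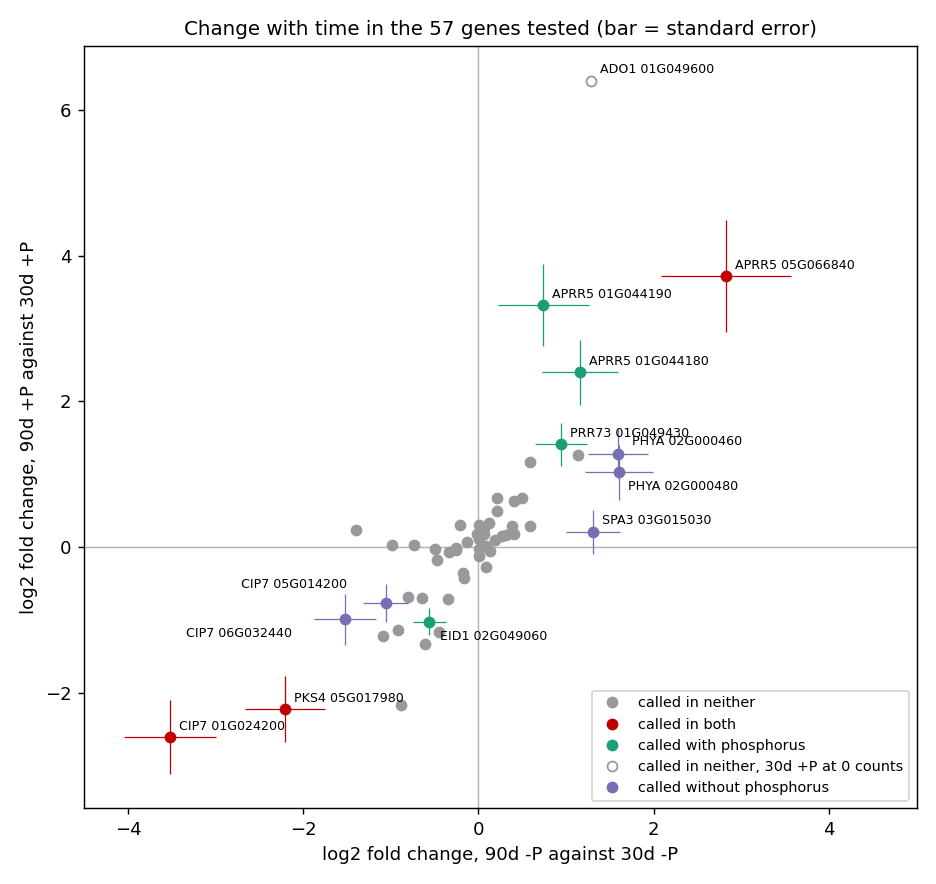
Log2 fold change of the 57 tested genes between 90 and 30 d without phosphorus (x axis) and with phosphorus (y axis), with standard errors for called genes. The 3 genes called in both lie at opposite ends, APRR5 Ebr05G066840 at 2.83 and 3.72 and CIP7 Ebr01G024200 at -3.52 and -2.60, and the open point is an ADO1 gene with 0 counts in 30d +P, whose fitted value is no bound.

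The pseudo-response regulators held 4 of the 7 genes that rose. Of 13 genes, 9 were tested, and 1 was called higher at 90 d without phosphorus and 4 with phosphorus, with none lower. APRR5 (named for the Arabidopsis regulator that represses LHY-type dawn genes) is annotated at 3 loci. The first, Ebr05G066840 (chromosome 5, 487812059 to 487815335), had 2.30, 9.48 and 22.6 CPM in 30d -P (replicates A to C, here and below in that order) and 9.89, 6.22 and 7.08 CPM in 30d +P. At 90 d it had 129, 52.3 and 62.5 CPM in -P and 48.9, 87.7 and 170 CPM in +P. Every 90 d library lay above every 30 d library, and the lowest and the highest 30 d level were both in 30d -P. The log2 fold change was 2.83 (SE 0.74, adjusted p = 0.0489) without and 3.72 (SE 0.77, adjusted p = 0.0349) with phosphorus. With each library left out in turn, the call held in 2 of 12 fits without and in 6 of 12 with phosphorus, while the log2 fold change stayed between 2.32 and 4.05.

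The other APRR5 genes are neighbours on chromosome 1, 6.69 kb apart with 0 genes between them. The sources used here do not say how reads matching both copies were assigned, which leaves the value of each copy uncertain. Ebr01G044190 (385389186 to 385394764) had 5.24, 9.28 and 17.3 CPM in 30d -P, 3.098, 4.87 and 4.61 CPM in 30d +P, 15.3, 17.9 and 19.98 CPM in 90d -P and 14.3, 57.8 and 53.4 CPM in 90d +P. The 30 d and 90 d libraries did not overlap in the +P plants, where it rose by 3.32 on the log2 scale (SE 0.56, adjusted p = 0.0249, called in 8 of 12 fits with a library left out). Without phosphorus the difference was 0.74 (SE 0.52, adjusted p = 0.412), and 30d -P replicate C overlapped the 90 d libraries. Ebr01G044180 (385375332 to 385382494) had 6.31, 9.09 and 13.6 CPM in 30d -P and 7.78, 5.55 and 6.54 CPM in 30d +P. At 90 d it had 23.9, 26.4 and 14.5 CPM in -P and 18, 57.3 and 29.7 CPM in +P. All 6 of the 90 d libraries were above the 30 d libraries. The rise of 2.40 with phosphorus was called (SE 0.45, adjusted p = 0.0282, called in 7 of 12 fits), and the difference of 1.16 without phosphorus was not (SE 0.43, adjusted p = 0.127). In replicate B of 90d +P, where this gene was highest, the leaf marker sum was lowest.

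PRR73, named for a rice regulator close to PRR37, was the most abundant of the class. Ebr01G049430 (chromosome 1, 427780527 to 427826649) had 122, 248 and 320 CPM in 30d -P, 233, 184 and 188 CPM in 30d +P, 469, 438 and 420 CPM in 90d -P and 475, 576 and 557 CPM in 90d +P. The 90 d libraries were all above the 30 d libraries. Its log2 fold change was 1.41 with phosphorus (SE 0.30, adjusted p = 0.0361, called in 5 of 12 fits) and 0.95 without (SE 0.30, adjusted p = 0.0806). A second PRR73 gene, Ebr06G004920 on chromosome 6, had a similar abundance, a mean of 304 CPM against 353 CPM, but differences of 0.39 and 0.29 that did not pass the test (adjusted p = 0.344 and 0.541). The third, Ebr01G049440, lies 88.9 kb from the first and had a mean of 9.43 CPM. APRR1, the counterpart of the Arabidopsis evening repressor TOC1, had 20.5, 37.5 and 27.1 CPM in 90d -P against 45.3, 52.5 and 44.3 CPM in 30d -P. These groups did not overlap, but the difference of -0.74 (SE 0.37, adjusted p = 0.245) did not pass, and it was 0.03 with phosphorus. The 5 genes annotated as APRR3 were low, with a highest mean of 4.75 CPM (Ebr03G000540), and 4 of them were under the filter. An assembled gene annotated as APRR2, tested at a mean of 0.426 CPM, was not called.

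GIGANTEA (Ebr05G042680, chromosome 5, 323488319 to 323536787), which in Arabidopsis binds the adagio proteins in light, was present as 1 gene. It had 167, 166 and 194 CPM in 30d -P, 261, 125 and 147 CPM in 30d +P, 234, 322 and 236 CPM in 90d -P and 300.4, 466 and 431 CPM in 90d +P. The 90 d libraries lay above the 30 d libraries of the same solution, but neither difference passed in edgeR, at 1.17 with (SE 0.29, adjusted p = 0.0553) and 0.59 without phosphorus (SE 0.29, adjusted p = 0.230). For the +P difference, DESeq2 on the 2 groups gave an adjusted p of 0.0276 and limma-voom 0.0108.

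No adagio or ELF4-like gene was called. ADO3, the counterpart of the Arabidopsis blue-light F-box protein FKF1 (Ebr01G034750), had 48.0 to 126 CPM and differences of 0.06 and 0.26 between times. ADO1, the counterpart of ZEITLUPE (Ebr05G005140), had 59.0 to 86.9 CPM. A second ADO1 gene (Ebr01G049600) had 0 counts in the 30d +P libraries, which allows up to 0.208 CPM per library at 3 counts, and at most 1.48 CPM in any other library. In 90d +P it had 1.27, 0 and 0.702 CPM, at least 3.17-fold higher than 30d +P against that floor (unadjusted p = 0.00886, adjusted p = 0.0944). The 3 ELF4-like genes, related to a subunit of the Arabidopsis evening complex, had means of 24.3 to 36.2 CPM. On the FPKM scale, which allows for gene length, these short genes stood at a mean of 70.5 to 105 FPKM, beside 71.3 FPKM for GIGANTEA, 110 FPKM for PRR73 Ebr01G049430 and 21 FPKM for APRR5 Ebr05G066840.

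**Figure D2:**
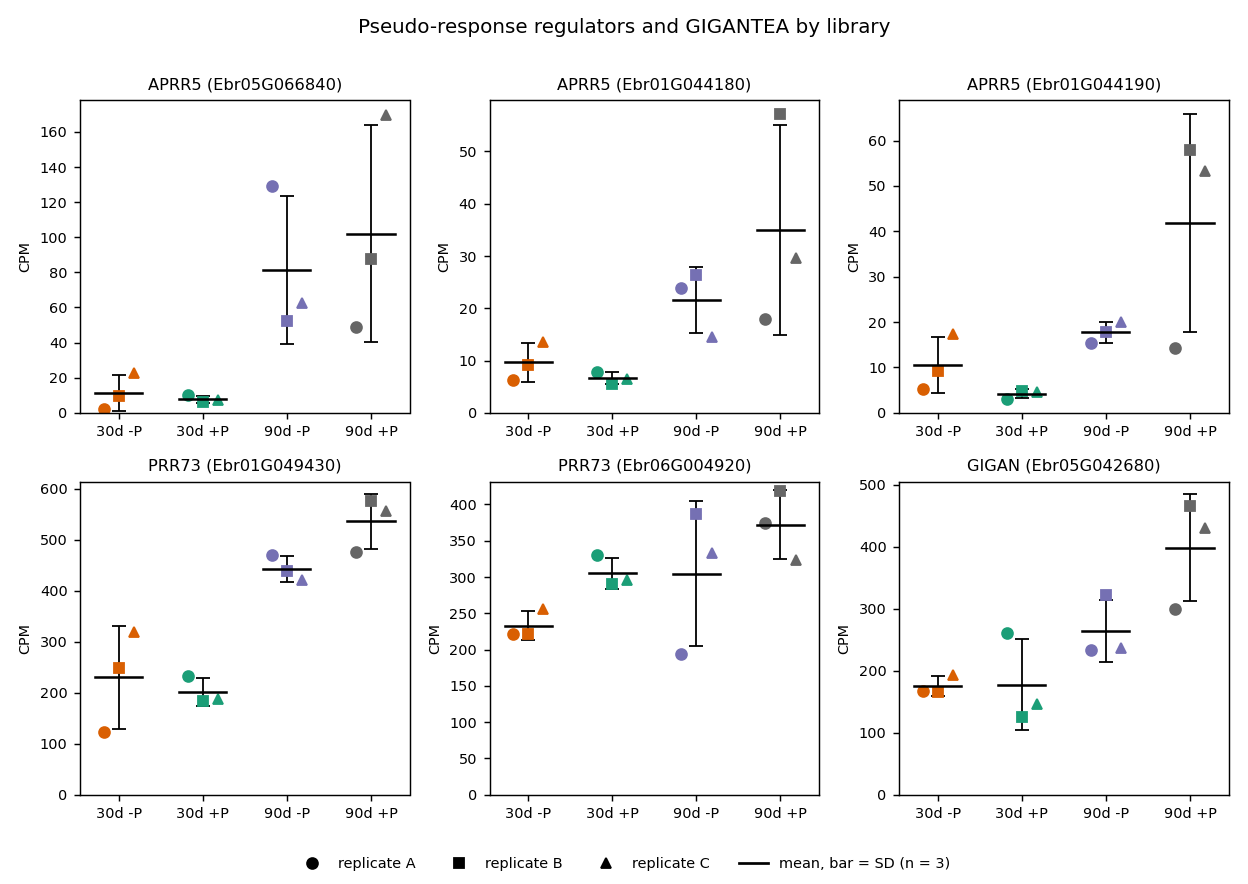
CPM of 6 clock genes in each of the 12 libraries (linear axes from 0; symbols are replicates, lines the group mean, bars the SD, n = 3). In APRR5 Ebr05G066840 and PRR73 Ebr01G049430 all 90 d libraries are above all 30 d libraries, while PRR73 Ebr06G004920 overlaps between 30 and 90 d.

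All 13 photoreceptor genes passed the filter. By mean FPKM, CRY1 (120 FPKM) and PHOT1 (106 FPKM) were the most abundant, followed by PHOT2 (Ebr05G036010, 70.0 FPKM), a cryptochrome DASH gene (Ebr05G058240, 53.4 FPKM), a second PHOT2 gene from the authors' assembly (32.1 FPKM) and CRY2 (25.2 FPKM). Phytochromes were lower, from 22.9 FPKM for PHYA Ebr02G000650 to 2.07 FPKM for PHYE. Over the 12 libraries the range of CRY1 (93.4 to 163 FPKM) lay within that of PHOT1 (74.9 to 187 FPKM), and the ranges of PHYB (mean 15 FPKM, 9.09 to 26.3 FPKM) and PHYC (mean 9.08 FPKM, 7.27 to 10.9 FPKM) overlapped each other. Of the 13, 2 were called, both PHYA genes, both higher at 90d -P than at 30d -P.

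**Figure D3:**
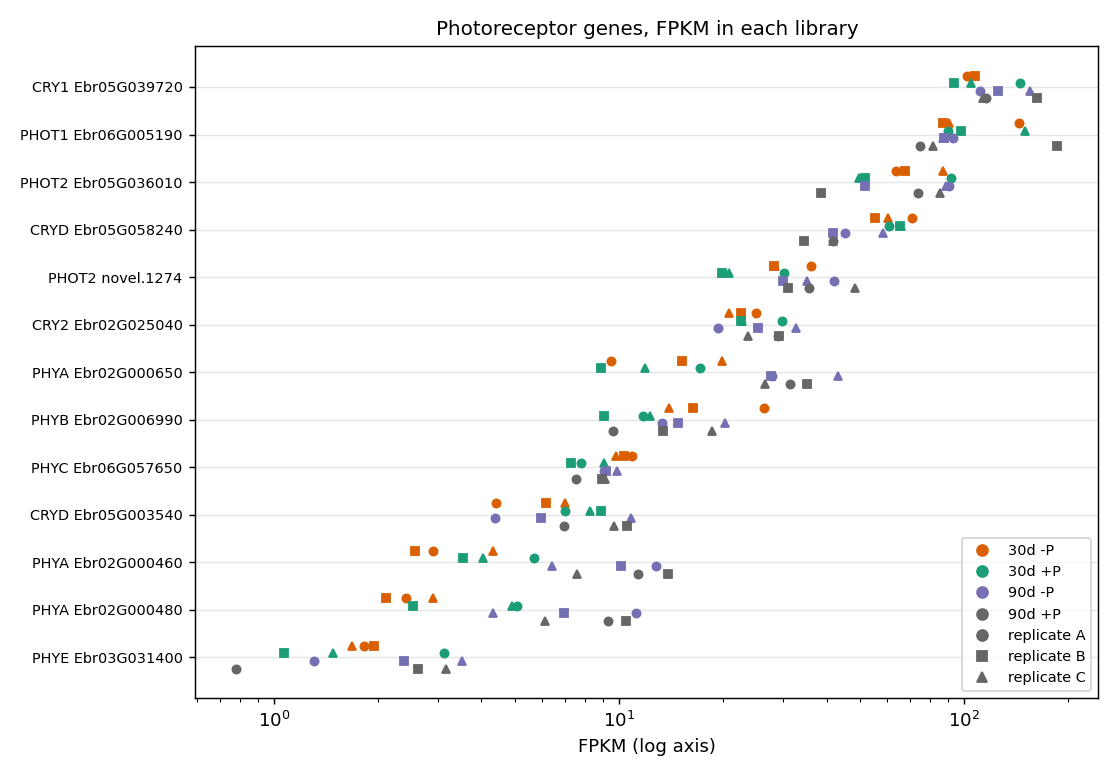
FPKM of the 13 photoreceptor genes in each library on a log axis, with colours for groups and symbols for replicates, ordered by mean. The 3 PHYA genes have their 90 d libraries to the right of the 30 d libraries of the same solution, while CRY1 and PHOT1, at means of 120 and 106 FPKM, overlap between the groups except for the -P libraries of CRY1.

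Phytochrome A, the far-red light sensor in Arabidopsis, is annotated at 3 loci within the first 3912140 bases of chromosome 2. Ebr02G000460 (3168107 to 3176661) had 9.40, 8.63 and 14.7 CPM in 30d -P, 19.4, 11.8 and 13.5 CPM in 30d +P, 43.2, 34.0 and 21.2 CPM in 90d -P and 38.0, 45.5 and 25.2 CPM in 90d +P. It rose without phosphorus by 1.59 on the log2 scale (SE 0.34, adjusted p = 0.0313, called in 8 of 12 fits with a library left out). With phosphorus the difference of 1.28 (SE 0.34, adjusted p = 0.0637) did not pass. Ebr02G000480 (3328211 to 3331918), 151.6 kb further on, had 7.89, 7.12 and 9.82 CPM in 30d -P and 37.8, 23.4 and 14.4 CPM in 90d -P. Its rise was 1.60 (SE 0.39, adjusted p = 0.0402, called in 4 of 12 fits), and the +P difference was 1.03 (SE 0.38, adjusted p = 0.148), from 17.3, 8.47 and 16.5 CPM to 31.2, 34.5 and 20.5 CPM. Both genes had their lowest 90 d level in replicate C of either solution.

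The third, Ebr02G000650 (3908349 to 3912140), was the most abundant phytochrome, with 31.5, 52.1 and 68.7 CPM in 30d -P, 59.9, 30.2 and 40.5 CPM in 30d +P, 95.5, 93.9 and 146 CPM in 90d -P and 107, 117 and 90.2 CPM in 90d +P. Its 90 d libraries were all above the 30 d libraries, with differences of 1.14 (SE 0.33, adjusted p = 0.0639) and 1.27 (SE 0.33, adjusted p = 0.0607) that edgeR did not call. The counting of reads that match several PHYA copies is likewise unknown. PHYB, the main red-light sensor (Ebr02G006990), PHYC (Ebr06G057650) and PHYE (Ebr03G031400) had differences between times of -0.21 to 0.40, with adjusted p of 0.596 or higher.

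CRY1, a blue-light receptor of seedling and leaf development (Ebr05G039720), had 277, 300 and 299 CPM in 30d -P, 412, 259 and 292 CPM in 30d +P, 311, 350 and 428 CPM in 90d -P and 323, 443 and 314 CPM in 90d +P. The difference was 0.31 (SE 0.22) without and 0.16 (SE 0.22) with phosphorus, neither past the test (adjusted p = 0.423 and 0.736). CRY2 (Ebr02G025040), known in Arabidopsis for promoting flowering, gave 0.18 and 0.10. Cryptochrome DASH proteins bind flavin like cryptochromes and are related to DNA repair photolyases. DASH gene Ebr05G058240 had 152, 160 and 162 CPM in 30d +P and 103, 83.0 and 103 CPM in 90d +P, without overlap. Its difference of -0.72 (SE 0.17, adjusted p = 0.0482) passed the adjusted p but not the fold change minimum.

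Phototropins direct bending, chloroplast movement and stomatal opening in blue light. PHOT1 (Ebr06G005190) had 473, 292 and 307 CPM in 30d -P, 307, 329 and 506 CPM in 30d +P, 313, 293 and 289 CPM in 90d -P and 252, 613 and 272 CPM in 90d +P. A single library was high in 3 of the 4 groups, and differences between times were -0.26 (SE 0.36) and -0.01 (SE 0.35). The PHOT2 genes gave 0.08 and 0.01 (Ebr05G036010) and 0.22 and 0.67 (the assembled gene, SE 0.24 for the second, adjusted p = 0.131).

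COP1 was not called. The expressed COP1 gene (Ebr03G008310) had 48.1 to 62.3 CPM over all 12 libraries. Its differences between times were 0.01 without phosphorus (an interval of 2 SE from -0.28 to 0.29, adjusted p = 0.991) and 0.12 with phosphorus (-0.17 to 0.40, adjusted p = 0.707), and the second COP1 gene (Ebr04G046300) had 0 counts. Among the SPA partners, SPA3 Ebr06G046490 (mean 150 CPM) and SPA2 (mean 85.4 CPM) had no called change. SPA3 Ebr03G015030 (chromosome 3, 121038750 to 121142346) had 7.25, 9.61 and 14.6 CPM in 30d -P, 16.3, 20.3 and 24.2 CPM in 30d +P, 28.1, 29.1 and 20.8 CPM in 90d -P and 24.3, 29.7 and 16.5 CPM in 90d +P. The 30d -P libraries were the lowest of all 12. It rose without phosphorus by 1.31 (SE 0.31, adjusted p = 0.0370, called in 4 of 12 fits), while the +P groups overlapped at 0.21 (SE 0.30, adjusted p = 0.748). Its neighbour Ebr03G015000, 313.2 kb away, ranged from 0.972 to 25.5 CPM, with low and high replicates inside 3 of the 4 groups.

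COP1-interacting protein 7 (CIP7), which in Arabidopsis promotes light-induced genes for chlorophyll and anthocyanin, is annotated at 4 loci, and 3 of them fell. The most abundant, Ebr06G032440 (chromosome 6, 258007005 to 258025149), had 642, 449 and 388 CPM in 30d -P, 357, 340 and 448 CPM in 30d +P, 279, 101 and 135 CPM in 90d -P and 170.0, 195 and 211 CPM in 90d +P. Every 90 d library was below every 30 d library. It fell by 1.52 on the log2 scale without phosphorus (SE 0.35, adjusted p = 0.0363, called in 5 of 12 fits), and the difference with phosphorus was -0.99 (SE 0.35, adjusted p = 0.128). Ebr05G014200 (chromosome 5, 95574872 to 95642425) had 90.5, 69.9 and 57.6 CPM in 30d -P and 40.1, 31.3 and 33.2 CPM in 90d -P, a fall of 1.06 (SE 0.26, adjusted p = 0.0420, called in 5 of 12 fits). With phosphorus, from 45.7, 48.6 and 75.9 CPM to 29.4, 43.0 and 27.7 CPM, the difference was -0.76 (SE 0.26, adjusted p = 0.117).

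Ebr01G024200 (chromosome 1, 207312774 to 207313131) is a gene model of 273 bases with the same annotation, against 4312 bases for Ebr06G032440. It had 12.5, 7.12 and 5.87 CPM in 30d -P, 4.09, 4.35 and 9.41 CPM in 30d +P, 0.486, 1.16 and 0.555 CPM in 90d -P and 1.03, 0.913 and 0.972 CPM in 90d +P. The 90 d libraries were all at about 1 CPM or below, and no 30 d library was under 4 CPM. The fall was 3.52 without phosphorus (SE 0.53, adjusted p = 0.0135, called in 11 of 12 fits) and 2.60 with phosphorus (SE 0.50, adjusted p = 0.0306, called in 6 of 12 fits), with the log2 fold change between -4.01 and -2.09 over all fits. In the 3 falling CIP7 genes and in PKS4 below, replicate A was the highest library of 30d -P, which also had the highest root marker sum, and replicate C the highest of 30d +P. The fourth CIP7 gene (Ebr02G026080) and the genes for COP10 and COP1 SUPPRESSOR 2 had log2 fold changes below 0 in both comparisons but were not called.

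Phytochrome kinase substrates act with phytochromes and phototropins in Arabidopsis growth responses to light. Of 10 genes, 5 were tested, all with negative log2 fold changes over time in both solutions, and 1 was called. PKS4 Ebr05G017980 (chromosome 5, 129868226 to 129869479) had 49.5, 22.8 and 17.3 CPM in 30d -P, 17.1, 21.2 and 38.7 CPM in 30d +P, 8.57, 4.44 and 6.35 CPM in 90d -P and 6.61, 5.37 and 4.54 CPM in 90d +P. All 90 d libraries were below all 30 d libraries. The falls of 2.21 (SE 0.45, adjusted p = 0.0276, called in 8 of 12 fits) and 2.22 (SE 0.46, adjusted p = 0.0342, called in 6 of 12 fits) were nearly the same in both solutions. PKS1 Ebr02G036940 had differences of -1.09 (SE 0.33, adjusted p = 0.0750) and -1.23 (SE 0.33, adjusted p = 0.0680). It lies at the end of a row of 7 PKS1 and PKS2 genes on chromosome 2, from 319492728 to 319636743, with 1 other gene among them, and the 5 PKS2 genes of the row were under the filter.

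EID1, an F-box protein that in Arabidopsis dampens phytochrome A signalling, is annotated at 2 loci. Ebr02G049060 (chromosome 2, 417389056 to 417412357) had 48.9, 36.7 and 33.1 CPM in 30d -P, 61.5, 46.3 and 45.3 CPM in 30d +P, 27.5, 24.3 and 28.7 CPM in 90d -P and 25.2, 25.3 and 24.6 CPM in 90d +P. The +P plants at 90 d were within 1 CPM of each other and below every 30 d library. It fell by 1.03 with phosphorus (SE 0.19, adjusted p = 0.0257, called in 6 of 12 fits), and the difference without phosphorus was -0.56 (SE 0.18, adjusted p = 0.0924). The other EID1 gene (Ebr01G005800) had 19.98 to 42.4 CPM and was not called.

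The gene annotated as a phytochrome-associated protein phosphatase (FYPP, Ebr04G045500) had 68.3, 54.1 and 53.2 CPM in 30d -P and 39.9, 29.3 and 31.0 CPM in 90d -P. Its difference of -0.81 (SE 0.19, adjusted p = 0.0359) passed the adjusted p but not the fold change minimum. HEADING DATE REPRESSOR 1, named for a rice repressor of flowering (HDR1, Ebr02G072960), had 38.7 to 70.5 CPM and differences of -0.17 and -0.36. The 2 tested phytochrome-interacting ankyrin proteins of 7 were not called.

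**Figure D4:**
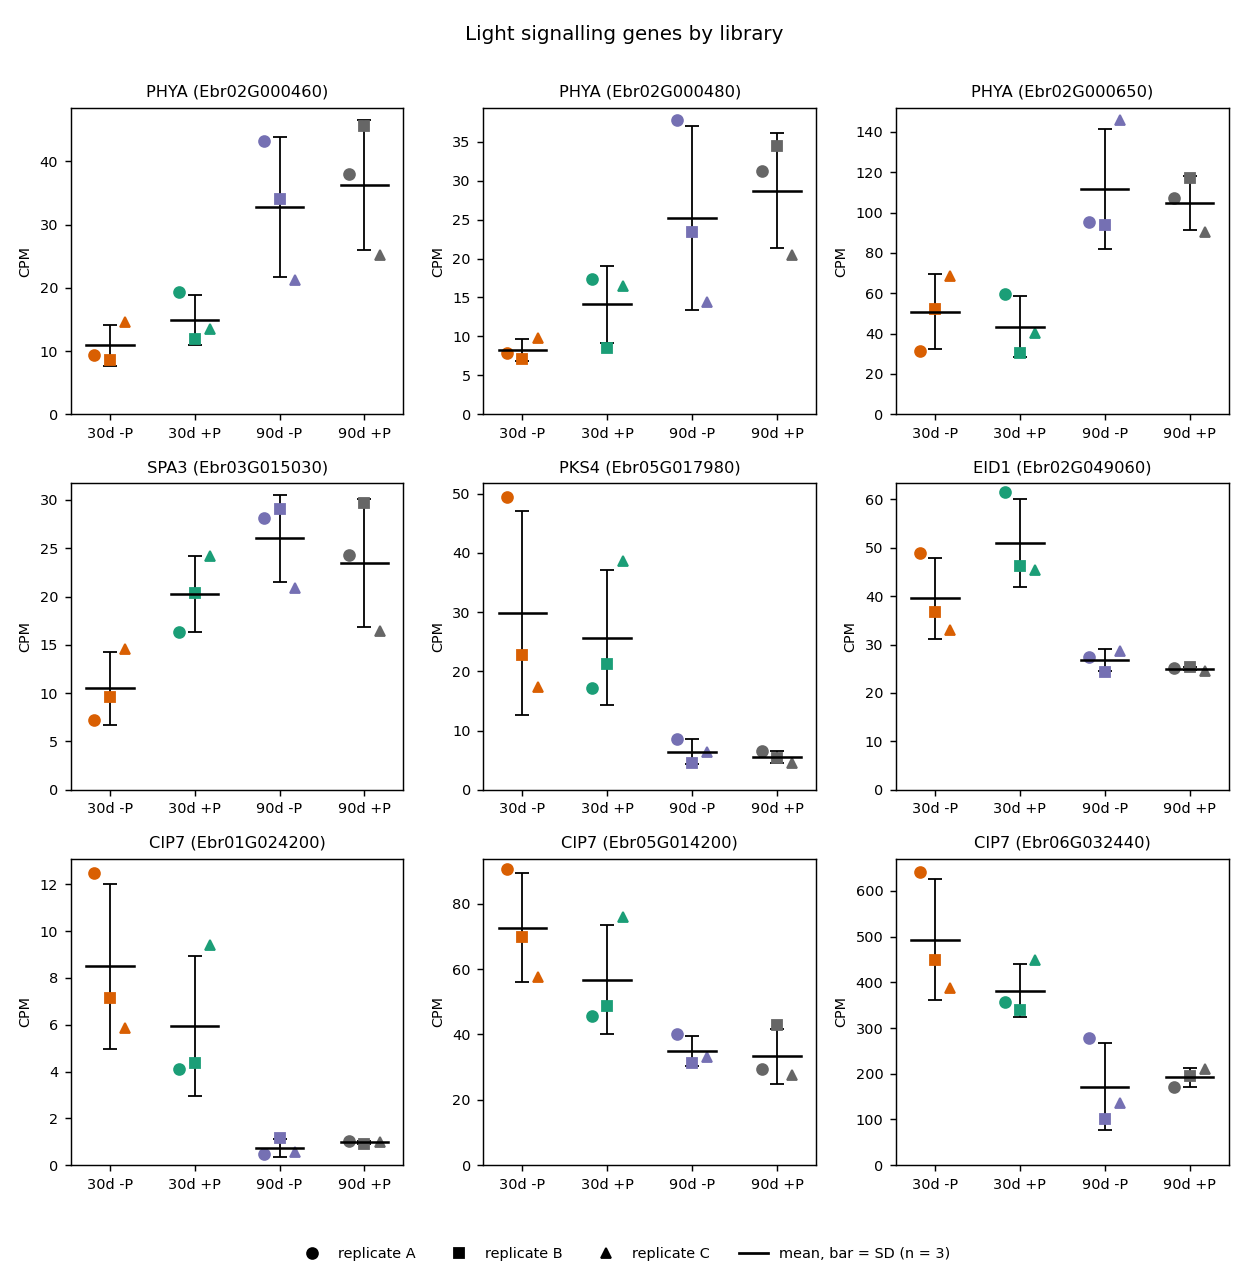
CPM of 9 light signalling genes in each of the 12 libraries (linear axes from 0; symbols are replicates, lines the group mean, bars the SD, n = 3). The PHYA genes are higher at 90 d, SPA3 Ebr03G015030 is lowest in 30d -P, and PKS4 and the CIP7 genes are lower at 90 d, CIP7 Ebr01G024200 at 0.486 to 1.16 CPM.

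Florigen-type transcripts were near the detection limit in these leaves. Of 7 genes annotated as HEADING DATE 3A, the rice counterpart of FT, 5 were under the filter, with at most 0.861 CPM in any library and 1 with 0 counts throughout. Ebr02G034810, the highest by mean, had 0.574, 1.57 and 1.59 CPM in 30d -P, 0.989, 2.32 and 1.60 CPM in 30d +P, 2.43, 0 and 0.308 CPM in 90d -P and 0.121, 1.24 and 0.810 CPM in 90d +P. Ebr05G058600 had 6.86 CPM in replicate A of 30d +P and 2.97 CPM in replicate A of 90d +P, and at most 1.05 CPM elsewhere. Its log2 fold change between -P and +P was -3.77 at 30 d (SE 1.74, unadjusted p = 0.0553, adjusted p = 0.695), where the groups did not overlap, and -3.55 at 90 d (SE 1.78, unadjusted p = 0.0727, adjusted p = 0.869), where they did. Neither gene was called in any comparison. ELF5 (Ebr01G034880, 36.5 to 56.8 CPM) and the 2 PIE1 genes, which in Arabidopsis are needed for full expression of the flowering repressor FLC, had differences of at most 0.32 between times.

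Phosphorus gave no called gene. In 30d -P against 30d +P edgeR called 0 of the 57 (0.0% of all genes tested), 5 had an unadjusted p under 0.05 (7.2% of all genes), 2 of them past the fold change minimum (4.85%), and 8 had groups without overlap in CPM (15.2% of all genes). DESeq2 on the 2 groups called 0 (2.3% of all genes), DESeq2 on all 12 libraries 0, limma-trend on FPKM 0, and limma-voom 1 (1.64% of all genes), SPA3 Ebr03G015030 (adjusted p = 0.0302). In edgeR this gene was lower in 30d -P by 0.95 on the log2 scale (SE 0.30, unadjusted p = 0.0104, adjusted p = 0.638). Its neighbouring SPA3 copy Ebr03G015000 had the higher mean in 30d -P, 16.7 CPM against 6.53 CPM in 30d +P, with overlap between the groups. APRR5 Ebr01G044190 was higher in 30d -P with a log2 fold change of 1.34 (SE 0.53, unadjusted p = 0.0298, adjusted p = 0.680). PHYB had 109.8, 70.5 and 60.5 CPM in 30d -P and 51.3, 38.8 and 52.8 CPM in 30d +P, a difference of 0.75 (SE 0.30, unadjusted p = 0.0283, adjusted p = 0.680). PHYC had 40.1 to 43.0 CPM against 29.3 to 36.7 CPM, a difference of 0.35 (SE 0.14, adjusted p = 0.680). The low ADO1 gene Ebr01G049600 had 19 counts over the 30d -P libraries against 0 over 30d +P, at least 2.03-fold higher on a floor of 3 counts per library (adjusted p = 0.650).

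In 90d -P against 90d +P edgeR again called 0 of the 57 (0.0% of all genes tested), 1 had an unadjusted p under 0.05 (5.88% of all genes, or 4.38% with the fold change minimum), and the groups did not overlap for 4 (8.92% of all genes). DESeq2 on the 2 groups called 0 (0.673% of all genes), as did DESeq2 on all 12 libraries, limma-voom and limma-trend. The 1 gene was APRR5 Ebr01G044190, at -1.24 (SE 0.52, unadjusted p = 0.0375, adjusted p = 0.842), with replicate A of 90d +P below the 90d -P libraries. All 9 tested pseudo-response regulators had a log2 fold change below 0 here, from -1.24 to -0.09, with a smallest adjusted p of 0.842. So did 35 of the 57 genes and 12204 of all 24307 genes tested. At 30 d 7 of the 9 were above 0, as were 30 of the 57 and 11984 of all genes. The 9 genes share the same libraries and some vary together between replicates, so they do not count as separate observations.

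Whether the change with time differed between the solutions was tested by the interaction, and edgeR called 0 of the 57 (0.0% of all genes tested), with 3 at an unadjusted p under 0.05 (2.97% of all genes, or 2.52% with the fold change minimum). DESeq2 on all 12 libraries, limma-voom and limma-trend each called 0. The 3 were APRR5 Ebr01G044190 (-2.58, SE 0.74, unadjusted p = 0.00575, adjusted p = 1.0), SPA3 Ebr03G015030 (1.10, SE 0.43, unadjusted p = 0.0271, adjusted p = 1.0) and the low ADO1 gene Ebr01G049600 (unadjusted p = 0.0462, adjusted p = 1.0). The genes called in 1 solution alone are therefore not shown to differ between the solutions.

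Around the clock genes, the 9 genes of the dawn loop and evening complex that are no members (LHY, REVEILLE and LUX types) included 6 tested, of which 1 fell without phosphorus. RVE1 (REVEILLE 1, Ebr03G038580), an LHY-related dawn factor, had 63.3, 41.4 and 68.0 CPM in 30d -P and 9.18, 17.7 and 13.1 CPM in 90d -P. This was a fall of 2.11 (SE 0.40, adjusted p = 0.0225, called in 8 of 12 fits with a library left out). With phosphorus the difference was -1.51 (adjusted p = 0.0596). No LHY gene was called by edgeR, and the most abundant (Ebr0G008380) stood at -0.23 without phosphorus (adjusted p = 0.548). A low LHY gene, Ebr04G020050, had 0.287, 0.327 and 0.446 CPM in 30d -P and 16.4, 1.52 and 0.247 CPM in 90d -P. Its difference was 4.07 (SE 1.94, adjusted p = 0.221 in edgeR and 0.0167 in DESeq2 on the 2 groups), and the groups overlapped. Among 83 further light signalling genes 44 were tested and 1 fell, RPT2 (Ebr03G027460), a phototropin partner in Arabidopsis, by 2.04 without phosphorus (SE 0.52, adjusted p = 0.0456, called in 2 of 12 fits). Among 75 photoperiod and flowering genes 50 were tested and 1 rose, an assembled gene annotated as VERNALIZATION 2 (3.89, SE 1.01, adjusted p = 0.0478, called in 3 of 12 fits, without phosphorus). Over all genes tested, 3.95% were called lower and 1.63% higher in that comparison, and with phosphorus edgeR called 0 of the 100 tested genes of the 3 lists. There, 14 had an unadjusted p under 0.05 (22.1% of all genes), and DESeq2 on the 2 groups (8.77% of all genes), DESeq2 on all 12 libraries, limma-voom (8.48%) and limma-trend each called 3. Without phosphorus, 23 of the 100 had an unadjusted p under 0.05 (25.4% of all genes). DESeq2 called 8 of them on the 2 groups (12.6% of all genes) and 7 on all 12 libraries. For limma-voom the count was 6 (9.9%), for limma-trend 3 and for edgeR on the 2 groups 2 (1.47%). The share of all genes called is not given for DESeq2 on all 12 libraries and limma-trend, here and in the phosphorus comparisons and interaction above. Their counts therefore cannot be set against all genes.

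How clock genes varied between replicates of a group was described by correlation. The genes were the pseudo-response regulator, GIGANTEA, adagio and ELF4-like members with a mean of at least 5 CPM. LHY Ebr0G008380, LHY Ebr02G067680 and RVE1 were added by choice. RVE8 (Ebr01G049680) and RVE6 (Ebr05G065090), also above 5 CPM, were not included. For 16 clock genes, the deviation of each library from its group mean of log2(CPM + 0.5) was correlated over the 12 libraries, giving 120 pairs that share libraries and normalization. Pearson's r was above 0 for 93 pairs (77.5%), at least 0.5 for 26 (21.7%) and at most -0.5 for 3 (2.5%). Over all pairs of the 14130 tested genes with a mean of at least 5 CPM, as these clock genes have, the shares were 50.2%, 12.3% and 11.9%. GIGANTEA and ADO1 Ebr05G005140 had r = 0.89, PRR73 Ebr01G049430 and APRR5 Ebr05G066840 r = 0.88, and the neighbouring APRR5 genes r = 0.69. The 3 pairs at most -0.5 were ELF4-LIKE 4 Ebr02G018270 with PRR73 Ebr01G049440 (r = -0.72), and ELF4-LIKE 1 Ebr01G066930 with LHY Ebr02G067680 (r = -0.70) and RVE1 (r = -0.67). Positive pairs also joined dawn and day genes. RVE1 had r = 0.73 with PRR73 Ebr06G004920 and r = 0.60 with GIGANTEA, and LHY Ebr0G008380 had r = 0.71 with APRR5 Ebr01G044190. In 30d -P, the group with the widest spread of APRR5 Ebr05G066840 on this log2 scale, replicate A was lowest and replicate C highest for the 3 APRR5 genes and PRR73 Ebr01G049430.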

How the data were processed

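Counts and FPKM of 12 leaf libraries were deposited as 2 tables of the whole series. The authors aligned reads with HISAT2 2.0.5 to the E. pubescens genome, whose version is not given in the sources used here, assembled further genes with StringTie 1.3.3b and, per the submitters' processing notes, counted reads with featureCounts 1.5.0-p3. The deposited counts are whole numbers without normalization. Strand use and the handling of reads shared between copies are not stated. No member's span overlaps another annotated gene. The authors' FPKM values divide the counts by gene length and by a library size that was 0.887 to 1.17 times the total count. They were used for levels across genes. Coordinates are those of the deposited tables. 1 row of each table was not analysed here.

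Comparisons used edgeR 4.0.16 (R 4.3.3) with TMM scaling, the filterByExpr filter by group, 1 robust quasi-likelihood fit over the 12 libraries (8 residual degrees of freedom) and Benjamini-Hochberg adjustment across every gene tested. CPM values are counts over TMM-scaled library size, computed from the deposited counts. SE was obtained by dividing the size of the log2 fold change by the root of the F statistic. Averaged over genes, replicates of a group differed far beyond counting error (mean chi-square per gene 26.4 to 144). Highly counted genes weigh most in this mean, and it does not hold for each gene. CIP7 Ebr01G024200, for example, had 17, 17 and 18 counts in 90d +P.

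Alternatives were RLE scaling, no filter, a filter of 1 CPM in 3 libraries, edgeR on 2 groups, DESeq2 1.42.0 on 2 groups and on all 12 libraries, limma 3.58.1 (voom with quality weights, and trend on log2(FPKM + 1)), a block for the replicate letter, unadjusted p, dropping the fold change minimum, and each library left out. Leaving out both 90 d replicates B was chosen after the data were seen. Before use, the edgeR, DESeq2 and voom fits were run on simulated counts, in which known genes had been changed. For limma-trend the simulated run used log2(CPM + 1), so the fit on FPKM was not tested in this way. RLE scaling, the other filters and the fits with a library left out were not run on simulated counts. The outcome of these runs is not given here.

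The members and lists were chosen with earlier results of these data known. Named by rule were the most abundant member of each class, every called member, and, per comparison of 2 groups, the 2 largest positive and 2 largest negative differences at unadjusted p under 0.05. Other members are named to complete their class, with values known. Columns for position and annotation were used for names and coordinates. No sequence was used.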

Additional observations from a re-analysis of the deposited data

How the results depend on the processing

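The replicate letters did not pair the libraries, with correlations of same-letter deviations between -0.297 and 0.184 (4 of 18 above 0.1) and of other pairs up to 0.336. With the letter as a replicate block, 0 of the 57 genes were called in either time comparison (0.498% of all genes without and 0.0411% with phosphorus). edgeR on the 2 groups alone called 1 without (1.47% of all genes) and 0 with phosphorus (0.00918%). For the comparison with phosphorus, DESeq2 on 2 groups called 11 (8.77% of all genes), DESeq2 on all 12 libraries 12, limma-voom 12 (8.48%) and unadjusted p 14 (13.2%). The main fit called 3.02% of all genes there, so these alternatives called more genes in general. For phosphorus at 30 d, limma-voom called 1 (1.64% of all genes) and unadjusted p 2 (4.85%), with unadjusted p 1 at 90 d (4.38%) and 3 for the interaction (2.52%). With 1 library left out the calls ranged from 0 to 9 without and from 0 to 10 with phosphorus, and with both 90 d replicates B left out they were 0 in both. The share of all genes called is not given here for these fits or for DESeq2 on all 12 libraries. RLE scaling, the filters, limma-trend and no fold change minimum stayed within 1.5 times of the main counts, as did DESeq2, limma-voom and unadjusted p without phosphorus. Over 33 gene values and their alternatives, 0 of 715 reversed direction, 547 kept their side of the threshold, 140 lost it and 28 gained it. Genes named for a call or a large difference in the same data are unlikely to reverse. Some differences between -P and +P did change sign with 1 library left out. The log2 fold change of PRR73 Ebr01G049430 ranged from -0.127 to 0.494 at 30 d. At 90 d, PHOT1 ranged from -0.562 to 0.182 and CIP7 Ebr06G032440 from -0.695 to 0.093. Leaving out 1 library changed the spread that all groups share as well as the number of replicates. Genes under 1 CPM are limited by depth.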
